A study of Mus musculus with 19 samples.

Results

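Cpne6, Ache, Fxyd6, Fxyd7, Pnck and Hhatl are 6 of the 18666 genes measured by RNA sequencing in sorted dorsal root ganglion neurons, and they lie among the genes with the largest deficit in MrgprA3+ against MrgprA3- neurons outside the named channel and receptor families. All 6 were found in the deposited table. They were chosen by this measured deficit, so it is described below and carries no test. MrgprA3+ neurons, the itch-sensing neurons that carry the receptor Mrgpra3, were sorted by green fluorescence, and MrgprA3- neurons were sorted from the same ganglia by a gate set for a like morphology. The 4 groups were MrgprA3+ neurons of mice with allergic contact dermatitis (ACD, 4 libraries, replicates 1, 2, 4 and 5), MrgprA3- neurons of ACD mice (5 libraries), MrgprA3+ neurons of control mice (5 libraries) and MrgprA3- neurons of control mice (5 libraries). Every mouse was a C57BL/6 male of 2 months with genetically labelled MrgprA3+ neurons, and 5 mice were used per treatment; the construct behind the label is not given in the sources used here. ACD mice received 25 µl of 0.5% squaric acid dibutylester in acetone on the abdomen on days 1 to 3 and on the lower back on days 8 to 12, while control mice received acetone. On day 13, 16 ganglia per mouse were taken. The libraries are bulk samples, so fewer cells of a type and less RNA per cell cannot be told apart.

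The depth was estimated at 10.3 to 21.05 M fragments per library from the spacing of low values, and 13448 to 14360 genes lay above 0 in MrgprA3+ libraries against 15534 to 16163 in MrgprA3- libraries. Mrgpra3, which checks the sort, averaged 940 ± 101 FPKM (SD, n = 4) in MrgprA3+ and 19.96 ± 3.97 FPKM (n = 5) in MrgprA3- neurons of ACD mice, and 1131 ± 197 against 20.2 ± 4.12 FPKM in control mice (n = 5 each). FPKM, the fragments of a gene scaled by transcript length and by the size of the library, is a level per length. Differences are given as means of log2(FPKM + 1), a scale that understates the change of genes at low FPKM. A gene counts as tested if it had at least 1 FPKM in at least 4 libraries, which 11996 genes did, and as called if its adjusted p in limma was below 0.05.

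The 6 genes belong to several kinds of protein. Fxyd6 and Fxyd7 encode small membrane proteins that bind the Na,K-ATPase, the pump that sets the sodium and potassium gradients of a neuron, and tune its transport. Ache encodes acetylcholinesterase, which breaks down acetylcholine. Cpne6 encodes a copine, a protein that moves to membranes when calcium rises, and Pnck encodes a calmodulin-dependent kinase related to CaM kinase I. Hhatl resembles the acyltransferase that puts palmitate on hedgehog proteins. Dorsal root ganglia hold many classes of sensory neuron, among them itch-sensing, pain-sensing and touch-sensing ones, and such genes can be high in one class and low in another.

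RefSeq promoter windows of 300 bases (250 before to 50 after the annotated start, GRCm38.p6) were at hand for 3 of the 6 genes. They are shown because these genes share a low level in MrgprA3+ neurons and their start regions can be set side by side. Capitals mark matches to any of 4 motifs, searched on both strands. The first is the TATA box, spelled TATAAA. The second is the CAAT box, bound by the factor NF-Y and spelled CCAAT. The third is the GC box, bound by Sp1 and spelled GGGCGG. The last is the E-box, bound by helix-loop-helix factors and spelled CANNTG.
Ache, chr5:137288004-137288303, plus strand: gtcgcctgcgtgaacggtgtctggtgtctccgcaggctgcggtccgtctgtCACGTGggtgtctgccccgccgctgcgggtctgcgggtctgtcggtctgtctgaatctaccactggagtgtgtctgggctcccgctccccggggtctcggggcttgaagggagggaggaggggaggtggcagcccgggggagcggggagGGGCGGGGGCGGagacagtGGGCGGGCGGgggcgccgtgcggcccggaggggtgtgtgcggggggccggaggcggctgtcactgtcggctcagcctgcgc
Fxyd6, chr9:45369935-45370234, plus strand: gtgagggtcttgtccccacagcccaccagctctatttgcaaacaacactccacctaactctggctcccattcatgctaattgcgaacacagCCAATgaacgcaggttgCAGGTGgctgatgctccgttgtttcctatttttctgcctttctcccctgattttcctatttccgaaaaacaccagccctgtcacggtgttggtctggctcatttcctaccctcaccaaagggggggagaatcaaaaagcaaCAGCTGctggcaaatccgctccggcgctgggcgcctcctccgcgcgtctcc
Hhatl, chr9:121792458-121792757, minus strand: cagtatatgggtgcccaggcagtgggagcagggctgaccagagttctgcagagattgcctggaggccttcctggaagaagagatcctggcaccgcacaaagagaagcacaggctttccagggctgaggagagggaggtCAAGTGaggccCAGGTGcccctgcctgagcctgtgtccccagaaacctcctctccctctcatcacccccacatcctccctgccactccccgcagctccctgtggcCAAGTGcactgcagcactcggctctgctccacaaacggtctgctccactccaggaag
The Ache window was 74.0% G and C with 30 CpG dinucleotides, and held 4 GC boxes, a pair of which overlap by 2 bases, and 1 E-box. The Fxyd6 window was 54.3% G and C with 12 CpG and held 1 CAAT box and 2 E-boxes. The Hhatl window was 61.7% G and C with 4 CpG and held 3 E-boxes. Over all 32851 windows the median was 52.7% G and C and 7 CpG, and 13.6% of them held a TATA box, 37.4% a CAAT box, 35.7% a GC box and 72.3% an E-box. The E-box was thus the only motif of the 4 found in all 3 windows, and it is also the one that most windows hold. A window at another annotated start of Hhatl (chr9:121791071-121791370, minus strand) had no match to any of the 4.

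Fxyd6 (gene ID 59095 in the deposited table) was measured at 13.6, 2.96, 7.37 and 5.43 FPKM in the MrgprA3+ libraries of ACD mice, against 69.3, 75.7, 52.7, 58.2 and 53.6 FPKM in the MrgprA3- libraries. In control mice it stood at 3.32, 3.72, 7.55, 11.6 and 2.01 FPKM in MrgprA3+ libraries, against 63.3, 75.7, 59.3, 53.7 and 58.1 FPKM in MrgprA3- libraries. The groups did not overlap in either treatment, and the lowest MrgprA3- library exceeded the highest MrgprA3+ library 3.87-fold in ACD and 4.63-fold in control mice. Its means were 7.35 ± 4.56 and 61.9 ± 10.2 FPKM in ACD mice (SD, n = 4 and 5) and 5.64 ± 3.92 and 62.0 ± 8.37 FPKM in control mice (n = 5 each). The log2 difference was -3.06 in ACD and -3.43 in control mice. Of the 6 genes Fxyd6 had the most similar level in the MrgprA3- neurons of both treatments.

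Fxyd7 (gene ID 57780) was the more abundant of the pair. It stood at 30.8, 19.2, 41.1 and 36.1 FPKM in the MrgprA3+ libraries of ACD mice, against 129.0, 151, 159, 176 and 134 FPKM in the MrgprA3- libraries. In control mice the values were 3.61, 1.42, 17.9, 19.8 and 20.1 FPKM in MrgprA3+ libraries, against 151, 155, 129, 135 and 132 FPKM in MrgprA3- libraries. No library of one population reached the other, and the MrgprA3+ libraries of control mice split into 2 at or below 3.61 FPKM and 3 at 17.9 to 20.1 FPKM. The log2 difference was -2.24 in ACD mice, where MrgprA3+ neurons held 21.2% of the MrgprA3- mean, and -3.84 in control mice, where they held 8.95%. With the lowest count of fragments behind it, about 10.1, the control library at 1.42 FPKM is the least precise value of this gene.

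Acetylcholinesterase transcript was likewise low in every MrgprA3+ library. Ache (gene ID 11423) stood at 10.4, 8.38, 12.9 and 12.9 FPKM in those of ACD mice, against 86.4, 110.7, 93.0, 78.9 and 84.9 FPKM in MrgprA3- libraries. In control mice it stood at 1.22, 0.64, 8.56, 11.5 and 4.07 FPKM in MrgprA3+ libraries, against 88.9, 100.3, 75.5, 76.6 and 53.0 FPKM in MrgprA3- libraries. The MrgprA3- libraries lay above all MrgprA3+ libraries of the same treatment by at least 6.10-fold in ACD and 4.61-fold in control mice. The means were 11.2 ± 2.20 and 90.8 ± 12.2 FPKM in ACD mice (n = 4 and 5), a log2 difference of -2.93. In control mice they were 5.20 ± 4.71 and 78.9 ± 17.7 FPKM (n = 5 each), a difference of -4.07, which placed Ache at rank 5 from the bottom of the 11996 tested genes.

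Cpne6 (gene ID 12891) was the most abundant of the 6 in MrgprA3- neurons, above 97.6% of tested genes there in ACD and above 96.4% in control mice. It stood at 24.2, 26.3, 38.2 and 75.9 FPKM in MrgprA3+ libraries of ACD mice, against 149, 218, 290, 295 and 190.3 FPKM in MrgprA3- libraries. In control mice the values were 3.08, 1.47, 27.5, 13.4 and 8.87 FPKM in MrgprA3+ libraries, against 211, 169, 119, 193 and 162 FPKM in MrgprA3- libraries. The gap between the populations was widest in the control mice, with a log2 difference of -4.33 (rank 3 from the bottom, behind Asic3 at -4.46), against -2.55 in ACD mice (rank 40). In ACD mice the library at 75.9 FPKM brought the populations within 1.96-fold of each other, the smallest separation among the 6 genes.

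Pnck (gene ID 93843) was detected unevenly in MrgprA3+ neurons. It stood at 5.07, 0, 0.22 and 1.27 FPKM in the libraries of ACD mice, against 21.2, 25.6, 20.9, 17.2 and 16.5 FPKM in MrgprA3- libraries. In control mice the values were 0.12, 0.19, 3.54, 3.64 and 0.2 FPKM in MrgprA3+ libraries, against 22.0, 23.7, 20.3, 16.8 and 14.7 FPKM in MrgprA3- libraries. The MrgprA3+ libraries thus fell into 5 at or below 0.22 FPKM, which is at most about 4.80 fragments, and 4 between 1.27 and 5.07 FPKM, or about 30.6 to 126 fragments. The value of 0 allows a level of up to 0.137 FPKM, counting 3 fragments as the limit, and this covers counting error only. The log2 difference was -3.38 in ACD and -3.32 in control mice, the most even of the 6 genes.

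Hhatl (gene ID 74770) was near its detection limit in MrgprA3+ neurons, at 0.34, 0.19, 0.12 and 0.6 FPKM in ACD mice, against 5.9, 13.9, 15.2, 10.7 and 9.47 FPKM in MrgprA3- libraries. In control mice it stood at 0.07, 0, 0.09, 0.72 and 0.13 FPKM in MrgprA3+ libraries, against 11.1, 6.79, 4.45, 11.4 and 6.26 FPKM in MrgprA3- libraries. The lowest MrgprA3- library still exceeded the highest MrgprA3+ library 9.83-fold in ACD and 6.18-fold in control mice. No MrgprA3+ library reached 1 FPKM, so Hhatl entered the tested genes only through the MrgprA3- libraries. MrgprA3+ neurons held 2.83% of the MrgprA3- mean in ACD and 2.53% in control mice, the lowest share of the 6 genes, although on the log2(FPKM + 1) scale its differences of -3.15 and -2.86 ranked 6 and 49. The MrgprA3+ libraries with a value above 0 rest on about 2.06 to 19.3 fragments each, and the value of 0 allows up to 0.156 FPKM.

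**Figure D1:**
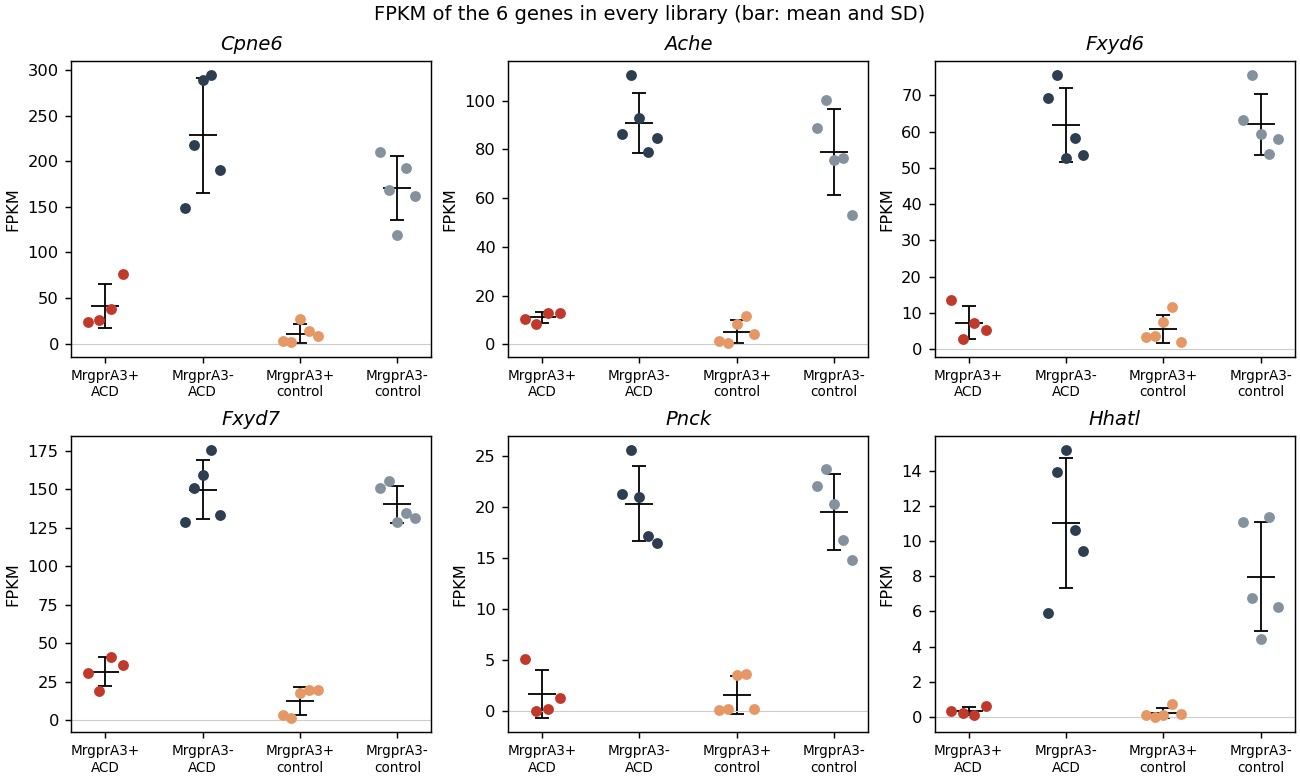
Level of each of the 6 genes (y axis, FPKM, a separate linear scale per gene) in every library of the 4 groups (x axis); points are libraries, and the bars give mean and SD. In all 6 panels the 4 ACD and 5 control MrgprA3+ libraries lie below every MrgprA3- library of the same treatment.

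Across the 6 genes the median log2 difference was -2.99 in ACD and -3.63 in control mice, beside -0.12 and -0.14 over all tested genes. The populations did not overlap for 6 of 6 genes in either treatment, which follows from how the genes were chosen. Over all tested genes, 14.6% in ACD and 12% in control mice had every MrgprA3+ library below every MrgprA3- library. Of all tested genes 15.2% were called lower in MrgprA3+ neurons of ACD mice and 18.4% in those of control mice. The genes next to the 6 in the order of the control difference were Npy2r (-4.10), Pou4f3 (-4.06), Cntn1 (-3.85), Kit (-3.82), Nts (-3.44), Il31ra (-3.40), Plcd4 (-3.35), Kcna1 (-3.30), Gfra3 (-2.86) and Atp2b2 (-2.85).

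Among themselves the 6 genes differed in how much they varied. Coefficients of variation ran between 19.7% and 145% in MrgprA3+ groups and between 8.59% and 38.6% in MrgprA3- groups. Set against the MrgprA3- mean of the same treatment, the median over the 6 genes was 16.0%, 7.01%, 13.1% and 11.5% in the ACD libraries (replicates 1, 2, 4 and 5) and 1.68%, 0.918%, 12.5%, 14.4% and 4.20% in the control libraries (replicates 1 to 5). The control replicates 1 and 2 stood at 6.00% or less for all 6 genes, and the medians of control replicates 3 and 4 lay within the span of the ACD libraries. Single genes did not follow this order: Pnck stood at 18.2% or more in ACD replicate 1 and control replicates 3 and 4 and at 6.26% or less elsewhere, and Cpne6 peaked in ACD replicate 5, at 33.2% of the MrgprA3- mean.

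Markers of other neuron classes varied over the same libraries. The summed level of 6 markers of low-threshold C fibres, the touch-sensing unmyelinated neurons marked by Th and Piezo2, was 18.8%, 8.67%, 25.2% and 32.2% of the MrgprA3- mean in ACD replicates 1, 2, 4 and 5. In control replicates 1 to 5 it was 6.40%, 3.16%, 18.9%, 12.3% and 14.2%. Most of the MrgprA3- sum was Th, at 153 FPKM on average in ACD and 183 FPKM in control mice, so the percentages mainly follow Th. Piezo2 fell less, with means of 7.90 in MrgprA3+ against 20.2 FPKM in MrgprA3- neurons of ACD mice, and 10.3 against 24.7 FPKM in control mice. In sums this list spanned 18.3 to 68.0 FPKM in MrgprA3+ and 200.2 to 222 FPKM in MrgprA3- libraries of ACD mice, and 8.06 to 48.3 against 212 to 323 FPKM in control mice. The lowest library of this list, control replicate 2, was also the lowest in FPKM for Cpne6, Ache, Fxyd7 and Hhatl. Fxyd6 was lowest in control replicate 5 and Pnck in ACD replicate 2. The highest library of the list, ACD replicate 5, was the highest for Cpne6 and narrowly for Ache (12.94 against 12.89 FPKM in ACD replicate 4). Fxyd6 and Pnck were highest in ACD replicate 1, Fxyd7 in ACD replicate 4 and Hhatl in control replicate 4. The 6 markers were above 0 in at least 1 library of each group. Their part in the levels of the 6 genes was not tested.

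Of 14 tested markers of large-diameter neurons, 9 were called lower in MrgprA3+ neurons of ACD mice and 12 in those of control mice, with Etv1 higher in both. Over all tested genes 15.2% and 18.4% were called lower. Some of these markers were near 0 in MrgprA3+ libraries and were tested mostly through the MrgprA3- libraries. Medians there were 0.535 FPKM in ACD and 0.14 FPKM in control MrgprA3+ libraries for Pvalb, and 0.305 and 0.09 FPKM for Scn1a. Nefh, a heavy neurofilament of large neurons, averaged 41.4 against 80.9 FPKM in ACD and 29.7 against 79.4 FPKM in control mice, and Pvalb, which marks muscle afferents, 0.758 against 7.49 FPKM and 0.814 against 5.61 FPKM. The sum of that list was led by Nefl and overlapped between the populations, at 5402 to 6888 against 4828 to 6087 FPKM in ACD and 4211 to 6123 against 4162 to 6079 FPKM in control mice. The 8 markers of the NP1 class, the Mrgprd neurons, summed to 370.2 to 403 against 792 to 918 FPKM in ACD and 296 to 655 against 854 to 1189 FPKM in control mice.

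Other cell types gave a mixed picture. The 4 markers of cold-sensing neurons summed to 2.74 to 10.7 FPKM in MrgprA3+ and 13.3 to 93.8 FPKM in MrgprA3- libraries of ACD mice, and to 0.42 to 49.1 against 5.78 to 99.9 FPKM in control mice (the highest sum of each group was mostly Penk, an opioid peptide gene, and Trpm8, the cold receptor, was at most 1.64 FPKM in any MrgprA3+ library and at 0 in 4 of 9). Satellite glia markers (12 genes) summed to 308 to 437 FPKM in MrgprA3+ and 376 to 545 FPKM in MrgprA3- libraries of ACD mice. In control mice they summed to 211 to 390.0 against 432 to 556 FPKM, and Hepacam was at 0 in MrgprA3+ libraries. Most of this sum was Apoe, with means of 296 against 346 FPKM in ACD and 235 against 369 FPKM in control mice. Sox10 averaged 0.25 against 0.596 FPKM and 0.518 against 0.778 FPKM. Ptprz1 went the other way, at 2.31 against 0.98 FPKM and 2.05 against 1.22 FPKM. Macrophage and leukocyte markers (9 genes) summed to at most 0.99 FPKM in MrgprA3+ and 31.6 FPKM in MrgprA3- libraries of ACD mice, and to at most 8.49 and 17.4 FPKM in control mice; C1qa was at 0 in all MrgprA3+ libraries. Of 16 markers of all neurons, the sums were 12433 to 14951 FPKM in MrgprA3+ and 11388 to 12334 FPKM in MrgprA3- libraries of ACD mice, and 12470 to 14904 against 10042 to 13294 FPKM in control mice. The part of these cells in the levels of the 6 genes was not tested.

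**Figure D2:**
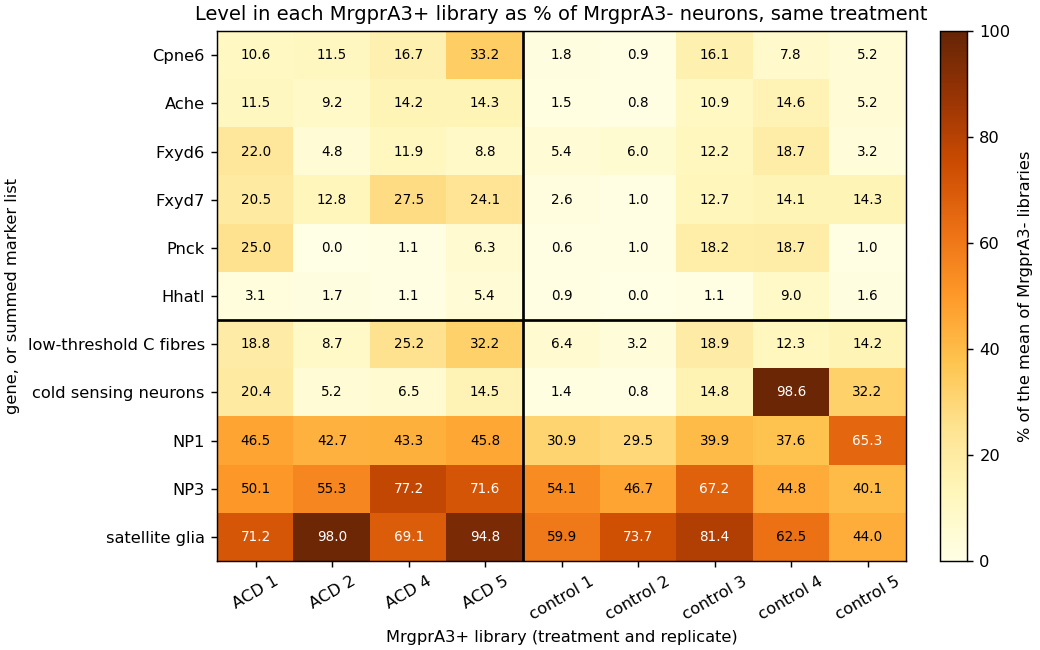
Level in each MrgprA3+ library (columns) as percent of the mean of the MrgprA3- libraries of the same treatment (colour and number), for the 6 genes and for summed marker lists of other cell classes (rows; NP1 and NP3 are classes of nonpeptidergic neurons). Control replicates 1 and 2 are pale for all 6 genes, for low-threshold C fibres (6.40% and 3.16%) and for cold-sensing markers (1.41% and 0.844%). NP1 is also lowest in these libraries (30.9% and 29.5%). NP3 and satellite glia are lowest in control replicate 5 (40.1% and 44.0%).

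Deviations of the 6 genes from their group means were compared across libraries, given here as a description over 9 MrgprA3+ and 10 MrgprA3- libraries, in which genes share each library's depth and purity. In MrgprA3+ libraries Cpne6, Ache and Fxyd7 moved together (Pearson r of 0.89 for Cpne6 with Ache, 0.85 for Cpne6 with Fxyd7 and 0.92 for Ache with Fxyd7), and so did Fxyd6 and Pnck (0.88), while Hhatl reached at most 0.64, with Ache. Fxyd6 and Fxyd7, although of one family, had an r of 0.37 there. Control replicates 1 and 2 held the lowest MrgprA3+ values of Cpne6 (3.08 and 1.47 FPKM), Ache (1.22 and 0.64 FPKM) and Fxyd7 (3.61 and 1.42 FPKM). How far the coefficients rest on these libraries was not tested. In MrgprA3- libraries Cpne6 again went with Fxyd7 (0.82) and Fxyd6 with Pnck (0.76). Ache, in contrast, went with Pnck there (0.88) and had an r of 0.12 with Cpne6, and Hhatl went with Cpne6 (0.85). Whether these coefficients differ between the populations was not tested.

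**Figure D3:**
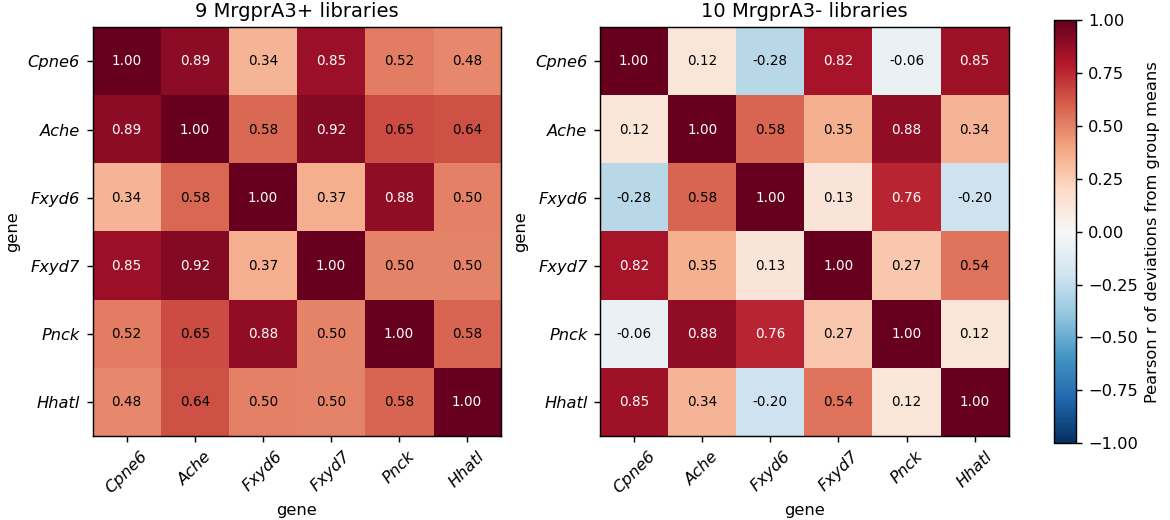
Pearson correlation (colour and number) of deviations from the group means of log2(FPKM + 1) between each pair of the 6 genes, over 9 MrgprA3+ libraries (left) and 10 MrgprA3- libraries (right). Cpne6 with Fxyd7 (0.85 and 0.82) and Fxyd6 with Pnck (0.88 and 0.76) are dark in both panels.

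Over all 19 libraries and 7210 genes with a mean of at least 5 FPKM, the genes whose deviations were most like those of Cpne6 were Kcna1 (r = 0.92), Mgat4a (0.89) and Necab3 (0.88). For Ache they were Fxyd7 (0.88), Rprm (0.86) and Hpca (0.85), and for Fxyd7 they were Snrnp40 (0.92), Gal (0.91) and Gfra2 (0.90). Kcna1, Necab3, Rprm, Hpca, Gal and Gfra2 also had lower means in MrgprA3+ neurons; Kcna1 averaged 3.50 against 22.9 FPKM in ACD mice and 1.31 against 19.6 FPKM in control mice. Fxyd6 was most like Mpst (0.90), Tmem175 (0.90) and Pnck (0.88), Pnck like Pias1 (0.89), Fxyd6 (0.88) and Flywch1 (0.83), and Hhatl like Bscl2 (0.80), Syne4 (0.78) and Nefl (0.78). Group means did not enter this measure: Syne4 was higher in MrgprA3+ neurons, at 19.2 against 3.71 FPKM in ACD mice, while Hhatl was lower. These coefficients are the highest among many genes and are given without a test.

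The comparison of ACD with control mice asked whether the dermatitis moved these genes within a population. It is not independent of the choice of the 6 genes, since the deficit that chose them was measured in the same libraries: Cpne6, Ache and Fxyd7 ranked 3, 5 and 11 by the control deficit and 40, 14 and 90 by the ACD deficit, and a choice by low values in control MrgprA3+ libraries by itself favours higher values in ACD. The differences are therefore given as a description, with only the outcome of the fit over all genes. None of the 6 genes was called in MrgprA3+ neurons, where 0% of all tested genes were called by limma (665 genes had an unadjusted p below 0.05). Cpne6, Fxyd7 and Ache nevertheless had higher means in ACD mice. Cpne6 averaged 41.1 ± 24.0 FPKM in ACD and 10.8 ± 10.4 FPKM in control mice (SD, n = 4 and 5), a log2 difference of 2.18 (SE 0.56, adjusted p = 0.748 in limma), and 2 of 4 ACD libraries lay above all control libraries. Fxyd7 averaged 31.8 ± 9.43 against 12.6 ± 9.24 FPKM, a difference of 1.68 (SE 0.55, adjusted p = 0.875 in limma), with 3 of 4 ACD libraries above all control libraries. Ache averaged 11.2 ± 2.20 against 5.20 ± 4.71 FPKM, a difference of 1.36 (SE 0.51, adjusted p = 0.875 in limma), with 2 of 4 above.

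The other 3 genes differed by less than 1 standard error between ACD and control MrgprA3+ neurons: Fxyd6 by 0.36 (SE 0.45), Hhatl by 0.14 (SE 0.27) and Pnck by 0.00 (SE 0.58) on the log2 scale. The higher means of Cpne6, Fxyd7 and Ache rested in part on the low control replicates 1 and 2. Without control replicate 2 the differences were 1.74 for Cpne6, 1.18 for Fxyd7 and 0.99 for Ache, and without control replicate 1 they were 1.93, 1.41 and 1.10. Among MrgprA3+ libraries the low-threshold C fibre markers had their highest sum in ACD and their lowest in control mice (18.3 to 68.0 against 8.06 to 48.3 FPKM). Other lists went either way. The highest sum was in control mice for NP1 (370 to 403 against 296 to 655 FPKM) and cold-sensing markers (2.74 to 10.7 against 0.42 to 49.1 FPKM). It was in ACD mice for NP3 (179 to 276 against 139 to 233 FPKM) and satellite glia (308 to 437 against 211 to 390 FPKM). The part of these cells in the differences was not tested.

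In MrgprA3- neurons 0.108% of all tested genes were called (13 genes by limma, with 1012 at an unadjusted p below 0.05) and none of the 6 was among them. Here Cpne6 averaged 228 ± 63.5 FPKM in ACD and 171 ± 34.8 FPKM in control mice (SD, n = 5 each), a log2 difference of 0.40 (SE 0.20, adjusted p = 0.635 in limma). Hhatl differed by 0.43 (SE 0.26, adjusted p = 0.676 in limma), with 11.0 ± 3.71 against 7.99 ± 3.08 FPKM, and the groups overlapped. Ache differed by 0.22 (SE 0.14), Fxyd7 by 0.09 (SE 0.09), Pnck by 0.06 (SE 0.14) and Fxyd6 by -0.01 (SE 0.12).

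The effect of ACD was then set against itself between the populations with an interaction term over all 19 libraries, by which 0% of tested genes were called (553 had an unadjusted p below 0.05). This term is the ACD deficit minus the control deficit, so for genes chosen by an extreme deficit its size and sign depend on the choice and support nothing. The effect was larger in MrgprA3+ than in MrgprA3- neurons by 1.79 for Cpne6 (SE 0.72), by 1.60 for Fxyd7 (SE 0.68) and by 1.14 for Ache (SE 0.56) on the log2 scale. For Fxyd6 the difference of effects was 0.37 (SE 0.45), for Pnck -0.05 (SE 0.63) and for Hhatl -0.29 (SE 0.39). The adjusted p in limma was 0.994 or more for all 6 genes, so none passed.

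**Figure D4:**
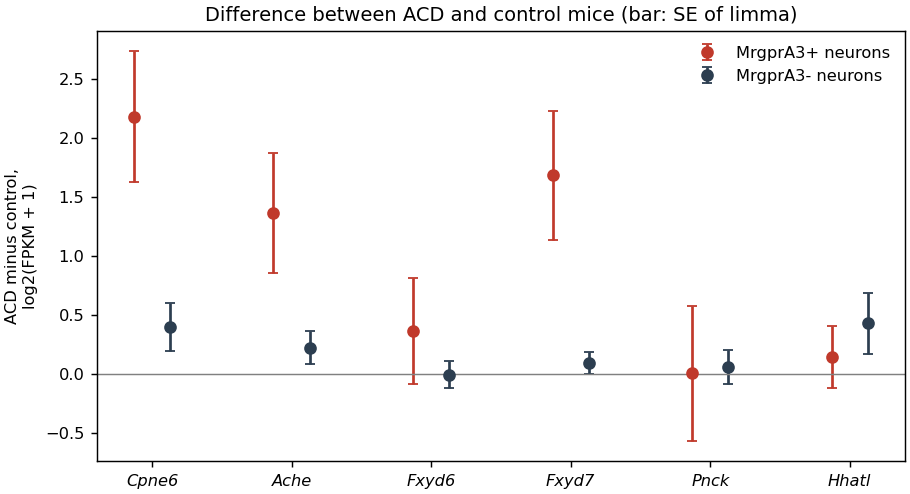
Difference between ACD and control mice in mean log2(FPKM + 1) (y axis) for each of the 6 genes (x axis), in MrgprA3+ and MrgprA3- neurons; bars are standard errors from limma. Cpne6, Fxyd7 and Ache sit at 2.18, 1.68 and 1.36 in MrgprA3+ neurons, with wide bars, and none of the 12 differences passed the threshold.

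The relatives of the 6 genes, 95 genes in 7 lists by family or pathway, were compared between the populations. The choice of the 6 did not use their values, but the lists were drawn up with earlier results of these data known. The shares below are thus a description and not an independent test. Of 65 tested relatives 30 were lower and 6 higher in MrgprA3+ neurons of ACD mice, where 15.2% of all tested genes were lower and 6.84% higher. In control mice 30 were lower and 5 higher, beside 18.4% and 8.64% of all genes. Of the 65, 13 had fewer than 4 MrgprA3+ libraries at 1 FPKM and so were tested only with the help of MrgprA3- libraries; 9 of them were among those lower in ACD and 8 among those lower in control mice. Bche, Colq, Fxyd3 and Chrna10 reached 1 FPKM in no MrgprA3+ library, so the filter itself set their direction. Without the 13, a count chosen after seeing the data, 21 of 52 relatives (40.4%) were lower in ACD mice, beside 11.8% of all genes held to the same condition, and 22 (42.3%) in control mice, beside 14.5%. A call in 1 treatment alone is not a difference between treatments, since the interaction term called 0 genes. As shares, 46.2% of the relatives were lower in each treatment, and 9.23% were higher in ACD and 7.69% in control mice. Under quantile scaling 8 relatives were higher in control mice, and the calls of Cpne9, Slc5a7, Fxyd3 and Ric3 were lost in both treatments, that of Lpcat4 in control mice and those of Chrna4 and Chrna10 in ACD mice. Median-ratio rescaling ended the calls of Ric3 in both treatments, of Calm3, Porcn and Lpcat4 in control mice and of Cpne1 and Disp2 in ACD mice. The direction of all calls over the whole table depended on the scaling: with the deposited FPKM 2204 genes were lower and 1037 higher in control mice, with median-ratio rescaling 1751 and 1413, and with quantile scaling 1529 and 1533, as the median of all genes moved to -0.05 and 0.04. In ACD mice the splits were 1826 and 821, 1510 and 1137, and 1296 and 1190.

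The FXYD family went both ways. Fxyd2, the gamma subunit that regulates the pump in kidney and sensory neurons, was higher in MrgprA3+ neurons, at 2875 ± 703 against 1160.1 ± 183 FPKM in ACD mice (SD, n = 4 and 5) and 3039 ± 319 against 1319 ± 221 FPKM in control mice (n = 5 each). The log2 differences were 1.28 (SE 0.15, adjusted p = 1.3e-06 in limma) and 1.21 (SE 0.14, adjusted p = 7.99e-07 in limma). Fxyd5 was lower, at 0.913 against 7.01 FPKM in ACD and 0.918 against 6.14 FPKM in control mice (differences -2.17 and -2.04), and Fxyd3 was lower at a level of at most 1.16 FPKM on average. Fxyd1 was not called, at 2.04 against 2.20 FPKM and 1.98 against 2.09 FPKM. As a share of the family's summed FPKM, Fxyd2 made up 98.4 ± 0.633% in MrgprA3+ and 83.7 ± 2.52% in MrgprA3- libraries of ACD mice, and 99.2 ± 0.364% against 86.0 ± 1.63% in control mice. Fxyd7 made up 1.17% against 10.9% in ACD and 0.412% against 9.26% in control mice, and Fxyd6 0.257% against 4.57% and 0.185% against 4.09%.

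Beta subunits of the pump, which bring it to the membrane, were also compared. Atp1b1 averaged 36.3 ± 8.72 FPKM in MrgprA3+ and 105.9 ± 23.2 FPKM in MrgprA3- neurons of ACD mice (SD, n = 4 and 5), and 30.9 ± 10.8 FPKM in MrgprA3+ and 131 ± 32.5 FPKM in MrgprA3- neurons of control mice (SD, n = 5 each). Its log2 differences were -1.52 (SE 0.24) in ACD and -2.09 (SE 0.22) in control mice, and both were called lower. Atp1b2 was lower as well, with 1.44 FPKM in MrgprA3+ and 4.16 FPKM in MrgprA3- neurons of ACD mice and 0.956 and 3.47 FPKM in those of control mice. Atp1b3 was not called, with 81.2 FPKM in MrgprA3+ and 97.4 FPKM in MrgprA3- neurons of ACD mice and 95.8 and 106 FPKM in those of control mice.

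Of 13 tested acetylcholine receptor genes and their partners, 9 (69.2%) were lower in ACD and 8 (61.5%) in control mice, and none was higher. Over all tested genes 15.2% were lower in ACD and 18.4% in control mice. Chrna3, a nicotinic subunit of ganglionic neurons, averaged 1.88 against 16.4 FPKM in ACD and 1.16 against 12.3 FPKM in control mice, log2 differences of -2.61 (SE 0.29) and -2.68 (SE 0.28). Its usual partner Chrnb4 differed by -2.17 and -2.58, and Chrna6 and Chrnb3 by -1.60 and -2.26 in ACD and by -1.99 and -1.92 in control mice. Chrm2, a muscarinic receptor, differed by -2.19 and -2.89, at 0.728 against 6.33 FPKM and 0.096 against 7.31 FPKM. Lynx1, which damps nicotinic receptors, was at 25.6 against 98.1 FPKM and 17.5 against 77.1 FPKM, differences of -1.91 and -2.10. Chrna4 and Ric3, a chaperone of nicotinic receptors, were also called lower in both treatments, but in ACD mice Chrna4 lost the call without ACD MrgprA3+ replicate 1 or 4 or MrgprA3- replicate 5, and Ric3 lost it in 4 of 9 leave-one-out fits in ACD and 8 of 10 in control mice. Chrna10, at 0.99 FPKM or less on average, was called in ACD mice only. Chrm2 and Chrna4 reached 1 FPKM in 1 of 9 MrgprA3+ libraries each, Chrnb3 in 2 and Chrna10 in 0. These 4 genes were therefore tested with the help of MrgprA3- libraries, and their calls say little on their own. Chrnb2 was not called, at 4.20 against 3.49 FPKM and 3.01 against 3.00 FPKM, nor was Chrna7, at 1.62 against 1.99 FPKM and 1.72 against 2.37 FPKM.

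Of the 5 tested genes that make, move or break down acetylcholine, 3 (60%) were lower in both treatments and none was higher. These were Bche, the other cholinesterase, Colq, the collagen tail that anchors acetylcholinesterase, and Slc5a7, the choline transporter. Over all tested genes the share lower was 15.2% in ACD and 18.4% in control mice. Bche, Colq and Slc5a7 were low in both populations, at 0.1 to 0.335 FPKM on average in MrgprA3+ and 1.25 to 2.31 FPKM in MrgprA3- neurons. Slc5a7 reached 1 FPKM in 1 MrgprA3+ library and the other two in none, so they were tested through the MrgprA3- libraries and the count says little on its own. Chat and Slc18a3, which make acetylcholine and load it into vesicles, did not enter the test, with at most 0.14 and 0.03 FPKM in any library. Ache, at 53.0 FPKM or more in every MrgprA3- library, was thus present where both were near 0.

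The copines went both ways as well. Cpne4 was higher in MrgprA3+ neurons, at 43.9 ± 13.0 against 12.5 ± 2.32 FPKM in ACD mice and 49.0 ± 7.06 against 13.1 ± 1.69 FPKM in control mice. These are log2 differences of 1.70 (SE 0.19, adjusted p = 6.84e-07 in limma) and 1.82 (SE 0.18, adjusted p = 5.98e-08 in limma). Cpne8 was higher by 0.53 and 0.58, at 224 against 155 FPKM and 261 against 176 FPKM. Cpne3 was lower by -0.72 and -0.70 and Cpne9 by -0.97 and -1.11, and Cpne1 was called lower in ACD mice. In ACD mice these last 3 calls were each lost without 1 of several libraries (Cpne3 without MrgprA3+ replicate 1 or 2, Cpne9 without 4 or 5, Cpne1 without 1 or 5 of either population). The ACD call of Cpne9 was also lost with a pseudocount of 0.1. Cpne9 reached 1 FPKM in 3 of 9 MrgprA3+ libraries, so it was tested with the help of MrgprA3- libraries and its calls say little on their own. Cpne6, at 10.8 to 228 FPKM by group, was the copine with the largest difference, which follows from its choice by a large deficit. Its family had members called in each direction.

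Calmodulins and CaM kinases, the family of Pnck, had 6 of 15 tested genes (40%) lower in ACD mice and 4 (26.7%) in control mice, beside genes called higher. Over all tested genes 15.2% and 18.4% were lower, so the share in control mice was not far above that of the whole table. The median difference of the list was -0.19 in ACD and 0.01 in control mice. Calm2, which encodes calmodulin and can share reads with near-identical copies, was higher by 0.66 in ACD and 0.65 in control mice, and Calm3 was lower by -0.59 and -0.43, a call lost in 3 of 10 leave-one-out fits in control mice. Camk1g, a CaM kinase I like Pnck, was at 14.5 ± 5.19 against 37.5 ± 1.92 FPKM in ACD mice and 14.9 ± 11.3 against 43.1 ± 4.17 FPKM in control mice, differences of -1.37 (SE 0.40) and -1.85 (SE 0.38). In ACD mice its call was lost without MrgprA3+ replicate 1 or 4. Camk1 was not called, at 77.8 against 56.3 FPKM and 63.6 against 50.04 FPKM. Camk2d and Camk2g were lower in both treatments, by -1.03 and -0.57 in ACD and -1.45 and -0.62 in control mice. Camk2a was called higher in ACD mice (0.96), a call lost without MrgprA3+ replicate 4, and Camkk1 was called lower (-0.83), a call lost without MrgprA3+ replicate 1.

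**Figure D5:**
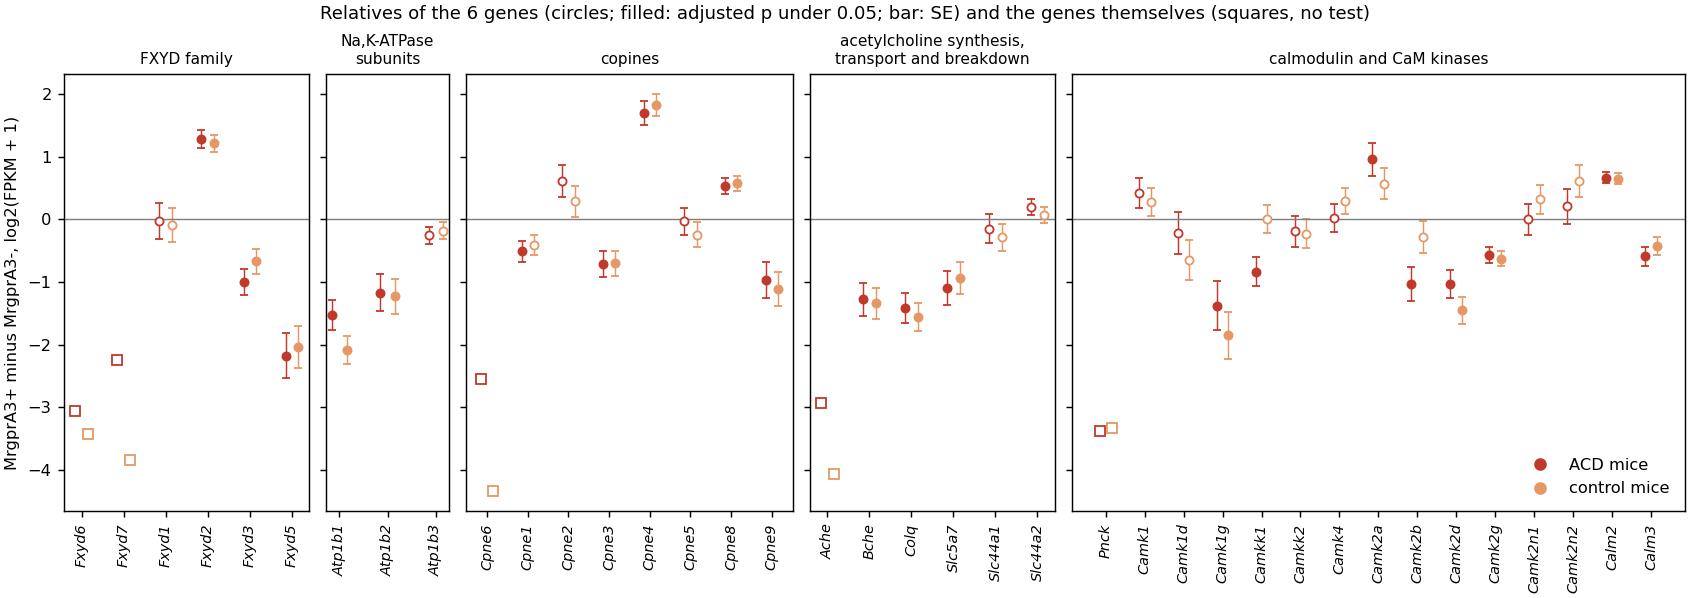
Difference between MrgprA3+ and MrgprA3- neurons in mean log2(FPKM + 1) (y axis) for genes of 5 families (panels, some genes not shown), in ACD and control mice; circles are relatives with standard errors from limma, filled where the adjusted p was below 0.05, and squares are the 5 of the 6 genes that belong to these families, shown without a test. Fxyd2 (1.28 and 1.21) and Cpne4 (1.70 and 1.82) sit above 0 in families where Fxyd6, Fxyd7 and Cpne6 sit lowest. The low place of Fxyd6, Fxyd7 and Cpne6 follows from how they were chosen.

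For Hhatl the list held the acyltransferases of its class and the hedgehog pathway. Of 15 tested, 3 (20%) were lower in ACD mice, near the 15.2% of all tested genes, and 6 (40%) in control mice, beside 18.4%, and none was higher. Disp1, which helps release hedgehog proteins from cells, averaged 1.01 against 4.02 FPKM in ACD and 1.16 against 4.14 FPKM in control mice, differences of -1.46 (SE 0.32) and -1.33 (SE 0.30). Disp2 was lower by -0.63 and -0.70 and Lpcat4, a lysophospholipid acyltransferase, by -1.16 and -0.75; Disp2 lost the call in 5 of 9 leave-one-out fits in ACD mice and Lpcat4 in 8 of 10 in control mice. Mboat2 (-2.04), Lpcat3 (-0.55) and Porcn (-0.61) were called in control mice only, and Porcn lost the call in 4 of 10 leave-one-out fits. Hhat itself, the hedgehog acyltransferase, was not called, at 2.72 against 1.85 FPKM in ACD and 1.36 against 1.20 FPKM in control mice. Shh, Ihh, Ptch1, Smo and Gli1 did not enter the test, with at most 0.64 FPKM in any library.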

How the data were processed

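Libraries of polyadenylated RNA from sorted neurons were prepared after isolation with RNeasy Micro kits, per the labels' protocols. The submitters' processing notes name Bowtie2 and mm9; its version, the annotation and the quantifier are not stated there. The values are FPKM made by the authors and deposited in 1 table with 2 decimals, matched to samples by column header. Damaged symbols (25 dates and 8 dashes) were looked up by gene identifier and 25 were repaired. Reads were not used here, so depth was estimated from the step between low FPKM values of 1080 genes of 300 to 900 bp, of which 73.98% to 83.17% lay within 0.2 of a whole step. The transcript lengths are of GRCm38, so depths and fragment numbers are approximate.

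Group means of log2(FPKM + 1) were fitted with limma 3.58.1 (trend and robust options, statmod 1.5.0, R 4.3.3) for the 11996 genes that reached 1 FPKM in 4 or more libraries. P-values were two-sided and adjusted over these genes by Benjamini and Hochberg (threshold 0.05). Population differences and the interaction used all 19 libraries with no term for the mouse, and ACD was tested within each population's own libraries, since the populations differ in spread. Both populations come from the same 5 mice per treatment, and p-values measure the spread between these samples. Exact permutation tests used scipy 1.17.1. The fits were tested on simulated data with 200 changed genes. Of the genes called there between populations, 13.3% were false with ACD libraries and 11.4% with control libraries. Both shares exceed the threshold of 0.05, so calls of relatives and markers between populations may hold more false ones than it states. For ACD the false share was 4.44% in MrgprA3+ and 3.45% in MrgprA3- neurons, and for the interaction 6.77%.

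The 6 genes and the lists of relatives and markers were chosen with earlier results of these data known. Besides these, the rule for naming took relatives called in either treatment, the 3 genes most like each of the 6, their neighbours in rank, and Mrgpra3. Some of the relatives are not reported here by name. Replicate 3 of MrgprA3+ neurons of ACD mice was not analysed here. The alternatives tried were no filter or a minimum of 5 FPKM, a pseudocount of 0.1, median-ratio and quantile scaling, other sets of samples in the fit, limma without its trend and robust options, exact tests, the replicate block, and each replicate left out.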

Additional observations from a re-analysis of the deposited data

Results flagged for a closer look

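Hhatl in MrgprA3+ neurons of control mice had 1 library far from the others of its group. Replicate 4 stood at 0.72 FPKM, against 0.07, 0, 0.09 and 0.13 FPKM in the other 4. In 24 groups looked at (the 6 genes in 4 groups) this was the only such value, and chance flags about 1 in 20 groups. At about 19.3 fragments the value is well above the limit of 3 fragments, and the same library had the highest Penk among MrgprA3+ libraries, 48.9 FPKM, with the other markers of cold-sensing neurons at or near 0 (Trpm8 0, Foxp2 0 and Cdh8 0.13 FPKM).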

How the results depend on the processing

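None of the 6 genes was called for ACD in either population, or for the difference between populations, under any alternative fit, while the exact test without adjustment put 2 of the 6 below 0.05 in MrgprA3+ neurons (Cpne6 and Fxyd7), which the choice of the genes favours. The median difference of the 6 genes between populations in control mice was -4.56 with a pseudocount of 0.1, and relatives higher in MrgprA3+ neurons of control mice numbered 8 under quantile scaling. With each replicate left out in turn that median spanned -3.91 to -3.34 in control and -3.04 to -2.78 in ACD mice, and relatives called lower numbered 27 to 29 in control and 24 to 29 in ACD mice. Values near 0 changed sign. The ACD effect of Pnck in MrgprA3+ neurons was -0.15 with the pseudocount of 0.1, -0.071 under quantile scaling and -0.53 to 0.34 with a replicate left out; in MrgprA3- neurons it spanned -0.033 to 0.13. That of Fxyd6 in MrgprA3- neurons was 0.026 with median-ratio rescaling and -0.083 to 0.065 with a replicate left out. The difference of ACD effects was 0.24 for Hhatl with the pseudocount of 0.1 and -0.58 to 0.29 for Pnck with a replicate left out. The causes were not tested. Genes called for ACD in MrgprA3+ neurons numbered 42 when all 19 libraries shared one spread (25 higher, 17 lower), and 0 in MrgprA3- neurons, where the separate fit called 13.

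The labels do not say whether equal replicate numbers mark 1 mouse, so the samples were not treated as paired. Libraries with the same number had deviations correlated at -0.06 to 0.19, 4 of 9 pairs were over 0.1, and 5 of 9 were best with their own number. With a replicate block the number of the 6 genes called for ACD was 0, relatives lower numbered 29 in control and 28 in ACD mice, and the ACD effect in MrgprA3+ neurons was 2.63 for Cpne6 (adjusted p = 0.169 in limma), 1.92 for Fxyd7 and 1.62 for Ache. Depth limits Hhatl and Pnck in MrgprA3+ neurons, where 3 fragments equal about 0.0993 to 0.190 FPKM.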
